A study of Oryza sativa with 8 samples.

Results

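The cytokinin oxidase genes followed in rice flag leaves were 6: CKX2, CKX3, CKX4, CKX5, CKX9 and CKX11. They were taken by locus identifier from a table of 32166 genes, and all 6 were present, each as 1 transcript. RNA came from 8 libraries of cultivar ZH11, harvested at heading per the sample labels and at booting per the series text. The title of every library carries the tag CK, which the labels do not explain. The genotype labelled GSK2-RNAi oswrky53, with 3 libraries, joins an RNA interference construct against GSK2 with a mutation of WRKY53. The genotype labelled GSK2-RNAi, with 3 libraries, carries that construct alone, and the wild type had 2 libraries, numbered 1 and 3. No promoter of the construct, number of independent lines, kind of WRKY53 mutation or source plant per library is given in the labels, so p-values measure only the spread between these samples. GSK2 is a kinase gene of brassinosteroid signalling, which its product holds back, and WRKY53 encodes a transcription factor.

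Cytokinins are adenine-derived hormones that delay leaf senescence and promote cell division. They act through histidine kinase receptors and phosphotransfer proteins on type-B response regulators, which switch on target genes, among them the type-A response regulators that damp the signal. Cytokinin oxidases, also called cytokinin dehydrogenases, are flavin enzymes that degrade cytokinins by cutting off their side chain. In rice, CKX2 is the gene of the grain number locus Gn1a, CKX4 is known from root growth, CKX9 from the response to strigolactone and CKX11 from leaf senescence and grain number.

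The members moved in different directions. In the GSK2-RNAi-labelled libraries, CKX9 and CKX11 rose and CKX4 fell against the wild type, while CKX2, CKX3 and CKX5 did not pass the test. CKX4 rose and CKX11 fell in the GSK2-RNAi oswrky53-labelled libraries against the GSK2-RNAi-labelled libraries. Against the wild type, 0 of the 6 members passed in the GSK2-RNAi oswrky53-labelled libraries. Tests were made with limma on log2(value + 1) over 25325 genes, and p-values were adjusted over all of them by the Benjamini-Hochberg method, with 0.05 as the threshold.

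Several facts of the libraries bear on these values. GSK2 (Os05g0207500) was at 155 to 219 normalized counts in the GSK2-RNAi oswrky53-labelled libraries, at 741 to 820 in the GSK2-RNAi-labelled libraries and at 98.5 to 105 in the wild type, which goes against the label of the construct. Groups are therefore named by their labels, and no direction stands for a lower GSK2 transcript. Summed normalized counts, in units of 1e6, were 25.98 to 27.04 in the GSK2-RNAi oswrky53-labelled libraries, 20.87 to 21.71 in the GSK2-RNAi-labelled libraries and 27.74 to 28.03 in the wild type. Depths estimated from the size of a single read ran from 19.87 to 38.71 in units of 1e6 reads, deepest in wild type replicate 1. Scaling the libraries to equal totals moved the median log2 difference of all genes between the GSK2-RNAi-labelled libraries and the wild type to 0.40, against 0.02 with the deposited scaling. The median between the GSK2-RNAi oswrky53-labelled libraries and the GSK2-RNAi-labelled libraries moved to -0.32, against -0.01. The leaf markers RCA, CAB1R and CAB2R, which encode Rubisco activase and light-harvesting proteins, summed to at least 477906 normalized counts in every library. Floral genes were also detected, with sums over the 6 listed of 291 to 1085 in the GSK2-RNAi oswrky53-labelled libraries, 394 to 579 in the GSK2-RNAi-labelled libraries and 229 to 536 in the wild type. Over all libraries MADS1 ran from 42.7 to 552 and MADS16 from 111 to 530, MADS3 and MADS6 were below both in each library, MADS8 was listed at 0 in 7 libraries and MADS7 in all 8. Their part in the results was not tested. In bulk tissue, fewer cells of a type and less RNA per cell cannot be told apart.

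**Figure D1:**
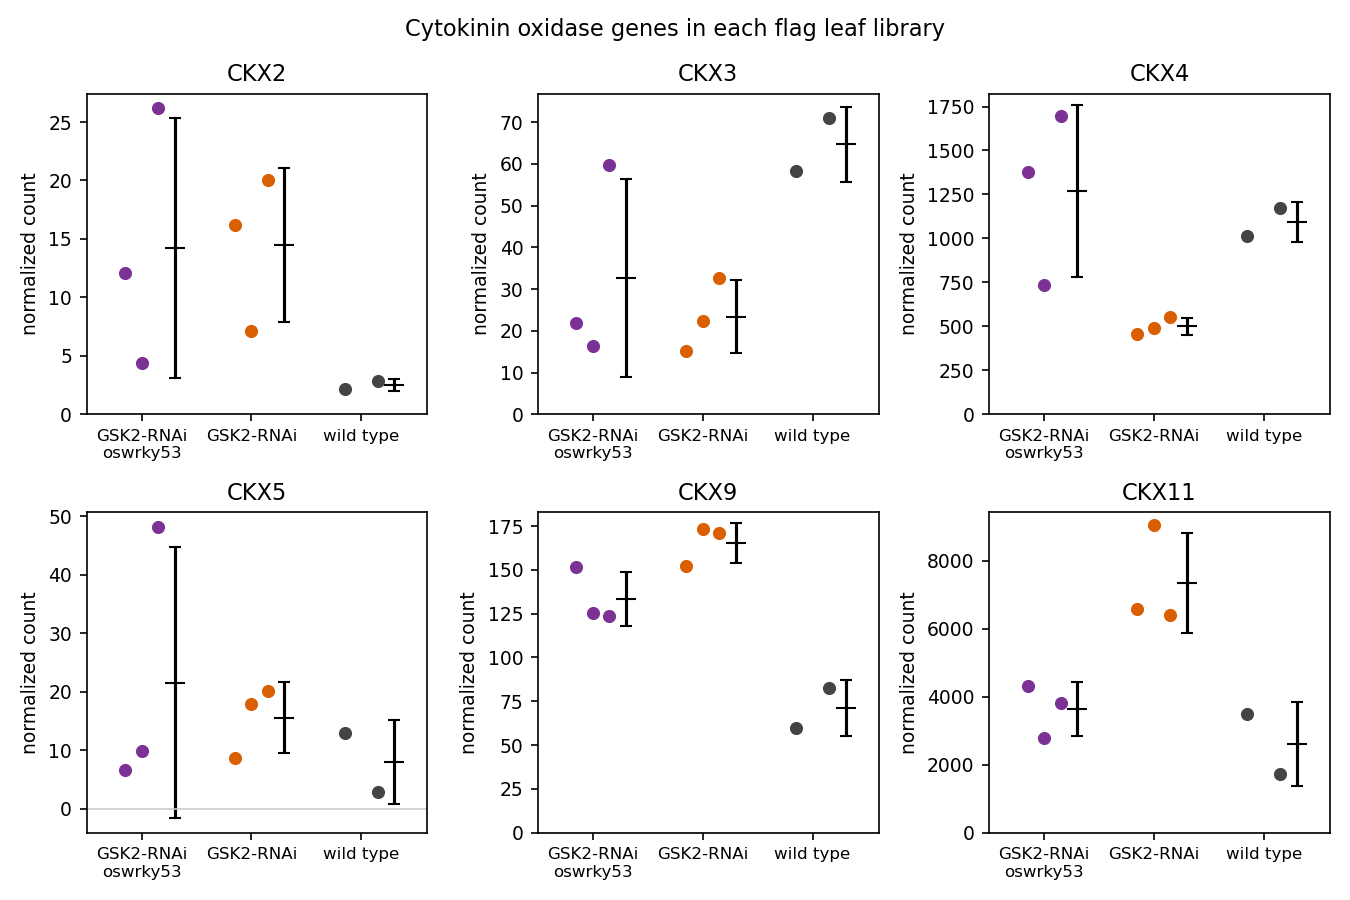
Normalized counts (y axes, linear, 1 panel per gene) of the 6 cytokinin oxidase genes by genotype. Each point is 1 library, and bars beside the points are the mean ± SD (n = 3, 3 and 2); CKX11 is highest and CKX4 lowest in the GSK2-RNAi-labelled libraries, and CKX9 is lowest in the wild type.

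CKX11 (Os08g0460600, chromosome 8) was at 4317, 2780 and 3826 normalized counts in the GSK2-RNAi oswrky53-labelled libraries, at 6582, 9055 and 6410 in the GSK2-RNAi-labelled libraries, and at 3498 and 1735 in the wild type. Every GSK2-RNAi-labelled library lay above the other 5, whose values overlapped between genotypes. Among all genes tested, 15.7% had their 3 GSK2-RNAi-labelled libraries above every other library, so the arrangement was common. The mean of the GSK2-RNAi-labelled libraries was 2.81-fold that of the wild type, with a log2 fold change of 1.56 ± 0.31 (SE, limma adjusted p = 0.00953). Under 17 other settings, 9 of the processing and 8 that each left out 1 library, this fold change ran between 1.05 and 2.06 and the call held in all 17 (adjusted p between 0.00299 and 0.0459). The GSK2-RNAi oswrky53-labelled libraries were 2.02-fold lower than the GSK2-RNAi-labelled libraries, a log2 fold change of -1.02 ± 0.28 (limma adjusted p = 0.0427). That second call was close to the threshold and held under 9 of the 17 settings. Dropping any 1 of the GSK2-RNAi-labelled libraries ended it (adjusted p = 0.085, 0.147 and 0.081 without replicates 1, 2 and 3), as did dropping replicate 2 or 3 labelled GSK2-RNAi oswrky53 (0.115 and 0.091). So did 3 choices of the fit, namely a model with the replicate number as a block (0.0711), one without the intensity trend (0.0759) and one per transcript (0.0569). Against the wild type the GSK2-RNAi oswrky53-labelled libraries differed by 0.54 on the log2 scale, with an interval of -0.18 to 1.26 (95% confidence, adjusted p = 0.512).

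Of the listed markers of leaf senescence, SGR and RCCR1 moved with CKX11, while NYC1 overlapped between the genotypes. The summed level of the 3 listed genes, SGR, NYC1 and RCCR1 of chlorophyll breakdown, ran from 3265 to 4840 normalized counts in the GSK2-RNAi oswrky53-labelled libraries, from 6159 to 11541 in the GSK2-RNAi-labelled libraries and from 1674 to 5299 in the wild type. RCCR1 and SGR passed the test upward in the GSK2-RNAi-labelled libraries against the wild type, beside 13.3% of all genes. Both passed downward in the GSK2-RNAi oswrky53-labelled libraries against the GSK2-RNAi-labelled libraries, beside 7.70% of all genes, and NYC1 passed in neither comparison. The RCCR1 calls held under all 17 settings in both comparisons; those of SGR held under 14 and 12. For SGR, the call against the wild type needed GSK2-RNAi replicate 2 and wild type replicate 3 (adjusted p up to 0.0874 when either was dropped). The call against the GSK2-RNAi-labelled libraries needed each of these 3 libraries and GSK2-RNAi oswrky53 replicate 2 (adjusted p up to 0.0896). Both SGR calls were also lost with the replicate block. Within the wild type, CKX11 was higher in replicate 1 than in replicate 3, and NYC1 was at 4831 and 1533 in the same order of libraries. NYC1 in wild type replicate 1 thus lay above GSK2-RNAi replicates 1 and 3, at 4285 and 3770. Summed leaf markers went the other way, at 831369 to 1136847 in the GSK2-RNAi oswrky53-labelled libraries, 477906 to 599654 in the GSK2-RNAi-labelled libraries and 992233 to 1080276 in the wild type, and 0 of the 3 leaf genes passed the test in any comparison. Of these genes, CAB2R overlapped between the GSK2-RNAi-labelled libraries and the wild type. Its value of 87346 in wild type replicate 1 lay below the GSK2-RNAi-labelled libraries, at 128578, 96002.5 and 98620. Without the intensity trend, RCA and CAB1R fell in the GSK2-RNAi-labelled libraries against the wild type (limma adjusted p = 0.00688 and 0.0248) and rose in the GSK2-RNAi oswrky53-labelled libraries against the GSK2-RNAi-labelled libraries (0.0203 and 0.0191). The part of these markers in the CKX11 result was not tested.

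CKX9 (Os05g0374200, chromosome 5) was at 151, 125 and 124 normalized counts in the GSK2-RNAi oswrky53-labelled libraries, at 152, 173 and 171 in the GSK2-RNAi-labelled libraries, and at 59.9 and 82.4 in the wild type. Both wild type libraries lay below the other 6, an arrangement shared by 11.0% of genes tested. The mean of the GSK2-RNAi-labelled libraries was 2.33-fold that of the wild type, with a log2 fold change of 1.22 ± 0.21 (SE, limma adjusted p = 0.00487), and the call held under all 17 settings, with fold changes of 0.99 to 1.60. CKX9 had the smallest spread within genotypes of the members that rose, at 11.7%, 6.87% and 22.4% of the mean in the GSK2-RNAi oswrky53-labelled libraries, in the GSK2-RNAi-labelled libraries and in the wild type. The GSK2-RNAi oswrky53-labelled libraries averaged 133 ± 15.6 against 166 ± 11.4 in the GSK2-RNAi-labelled libraries (SD, n = 3 each), a log2 fold change of -0.31 with an interval of -0.74 to 0.11 that did not pass (adjusted p = 0.284). With equal totals this difference was -0.63 and was called (adjusted p = 0.0394). Against the wild type the GSK2-RNAi oswrky53-labelled libraries were 1.88-fold higher, at a log2 fold change of 0.91 with an interval of 0.43 to 1.39. That did not pass after adjustment over all genes (limma adjusted p = 0.147), in a comparison where 0.336% of genes tested were called and 13.0% had an unadjusted p under 0.05. In this comparison CKX9 had an unadjusted p of 0.00214 in the limma fit.

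CKX4 (Os01g0940000, chromosome 1) was at 1376, 734 and 1696 normalized counts in the GSK2-RNAi oswrky53-labelled libraries, at 457, 490 and 552 in the GSK2-RNAi-labelled libraries, and at 1013 and 1176 in the wild type. It was lowest in the 3 GSK2-RNAi-labelled libraries, with no overlap with the other 5, as were 15.3% of genes tested. The mean of the GSK2-RNAi-labelled libraries was 2.19-fold lower than that of the wild type, a log2 fold change of -1.13 ± 0.31 (SE, limma adjusted p = 0.0299). This call held under 9 of 17 settings. Dropping either wild type library, replicate 1 or 3, ended it (adjusted p = 0.0826 and 0.126), as did dropping any GSK2-RNAi-labelled library, replicate 1, 2 or 3 (0.0796, 0.0823 and 0.0577). It was also lost with the replicate number as a block (0.0558) and when no intensity trend was used (0.0575). With equal totals the log2 fold change was -0.75, a value over 1.5 times smaller, and the call was lost too (0.0973). The GSK2-RNAi oswrky53-labelled libraries were 2.54-fold higher than the GSK2-RNAi-labelled libraries, a log2 fold change of 1.26 ± 0.28 (limma adjusted p = 0.0192), and the call held under 14 of 17 settings. The exceptions were leaving out GSK2-RNAi oswrky53 replicate 3 (1.01, adjusted p = 0.0529) and leaving out replicate 1 or 2 labelled GSK2-RNAi (0.0623 and 0.0703). Within the GSK2-RNAi oswrky53-labelled libraries the SD was 38.6% of the mean, against 9.61% in the GSK2-RNAi-labelled libraries and 10.5% in the wild type, and replicate 2 was the lowest of that group. Between the GSK2-RNAi oswrky53-labelled libraries and the wild type the difference was 0.13 on the log2 scale, with an interval of -0.57 to 0.84 (adjusted p = 0.892).

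The remaining 3 members had low values. CKX3 (Os10g0483500, chromosome 10) was at 21.9, 16.3 and 59.8 normalized counts in the GSK2-RNAi oswrky53-labelled libraries, at 15.1, 22.4 and 32.7 in the GSK2-RNAi-labelled libraries, and at 58.4 and 71.0 in the wild type. The wild type lay above all GSK2-RNAi-labelled libraries, but GSK2-RNAi oswrky53 replicate 3 fell within the wild type range. The log2 fold change of the GSK2-RNAi-labelled libraries against the wild type was -1.49, with an interval of -2.76 to -0.21, and did not pass (limma adjusted p = 0.0863); it was called under 3 of 17 settings, one of them quantile normalization (-1.74, adjusted p = 0.048). For the GSK2-RNAi oswrky53-labelled libraries the log2 fold change was 0.31 against the GSK2-RNAi-labelled libraries (adjusted p = 0.713) and -1.18 against the wild type (adjusted p = 0.422). The first of these turned to -0.23 without GSK2-RNAi oswrky53 replicate 3.

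CKX2 (Os01g0197700, chromosome 1), the gene of Gn1a, was at 12.1, 4.36 and 26.2 normalized counts in the GSK2-RNAi oswrky53-labelled libraries, at 16.2, 7.16 and 20.1 in the GSK2-RNAi-labelled libraries, and at 2.16 and 2.84 in the wild type. All 6 libraries labelled GSK2-RNAi, with or without oswrky53, were above both wild type libraries, the arrangement that 11.0% of genes tested had. CKX2 reached the level needed for testing only in libraries outside the wild type. The arrangement and the fold changes against the wild type are therefore not independent of how genes were selected for testing. The wild type values stood for about 2.99 reads in each library, so the size of the difference is loosely fixed. From about 42 reads in the GSK2-RNAi-labelled libraries and 6 in the wild type, the ratio was 5.72 with an exact interval of 2.42 to 16.5 (95% confidence, counting error only). From about 40 and 6 reads, the ratio of the GSK2-RNAi oswrky53-labelled libraries to the wild type was 5.83, with an interval of 2.46 to 16.8. With the spread between libraries included, the log2 fold changes of 2.04 and 1.83 did not pass (limma adjusted p = 0.082 and 0.36). The first was called under 3 of 17 settings, among them equal totals (2.36, adjusted p = 0.0384) and the replicate block (2.55, adjusted p = 0.0337). Between the GSK2-RNAi oswrky53-labelled libraries and the GSK2-RNAi-labelled libraries the log2 difference was -0.21, with an interval of -1.75 to 1.33, and it turned to 0.39 without GSK2-RNAi oswrky53 replicate 2.

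CKX5 (Os01g0775400, chromosome 1) was at 6.58, 9.81 and 48.2 normalized counts in the GSK2-RNAi oswrky53-labelled libraries, at 8.65, 17.9 and 20.1 in the GSK2-RNAi-labelled libraries, and at 13.0 and 2.84 in the wild type. All 3 genotypes overlapped. No comparison passed, with limma adjusted p of 0.408 for the GSK2-RNAi-labelled libraries against the wild type, 0.989 for the GSK2-RNAi oswrky53-labelled libraries against the GSK2-RNAi-labelled libraries, and 0.639 for the GSK2-RNAi oswrky53-labelled libraries against the wild type. On the log2 scale the interval for the GSK2-RNAi oswrky53-labelled libraries against the wild type ran from -0.93 to 3.17, and that for the GSK2-RNAi-labelled libraries against the wild type from -0.95 to 3.15. The difference between the GSK2-RNAi oswrky53-labelled libraries and the GSK2-RNAi-labelled libraries, 0.02, turned to -0.79 without GSK2-RNAi oswrky53 replicate 3. GSK2-RNAi oswrky53 replicate 3 held the highest value of its genotype for CKX2, CKX3, CKX4 and CKX5, but not for CKX9 or CKX11. CKX1 (Os01g0187600), another oxidase of the family, was at 0 to 6.49 normalized counts in all libraries and was not tested.

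**Figure D2:**
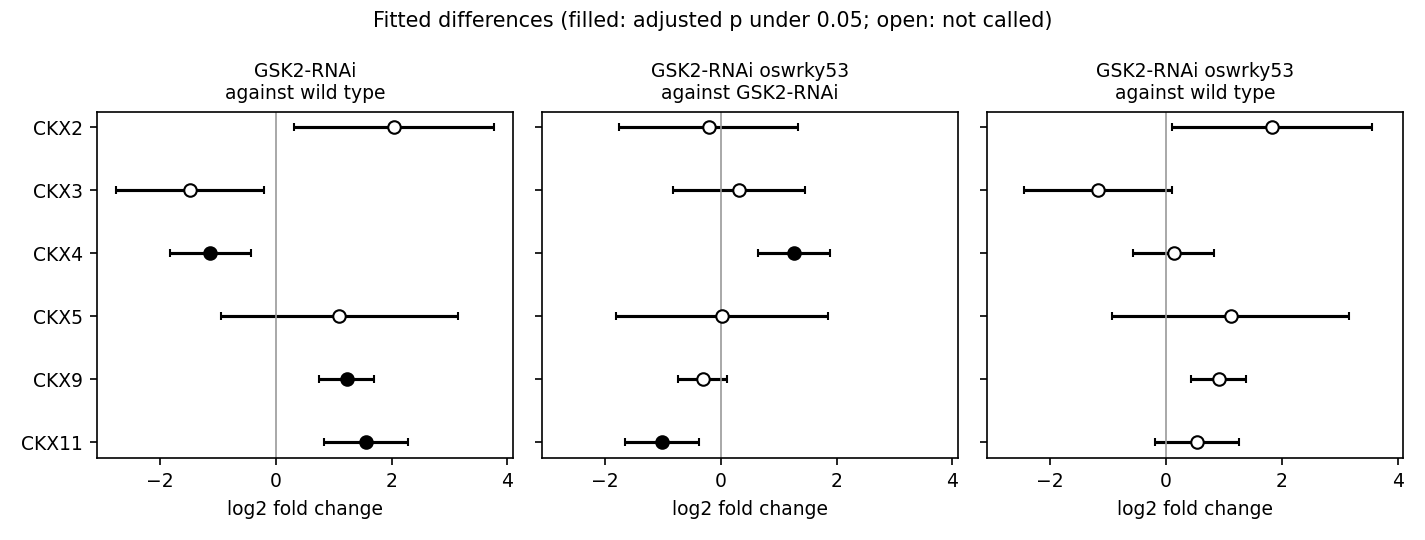
Fitted log2 fold changes (x axes) of the 6 genes in each comparison, with bars for the 95% confidence interval of the limma fit. Filled points passed an adjusted p under 0.05, which held for CKX4, CKX9 and CKX11 on the left, for CKX4 and CKX11 in the middle and for 0 genes on the right.

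Counted over the family, 2 of 6 members rose and 1 fell in the GSK2-RNAi-labelled libraries against the wild type, where 24.8% of all genes tested were called, 13.3% upward and 11.6% downward. In the GSK2-RNAi oswrky53-labelled libraries against the GSK2-RNAi-labelled libraries, 1 of 6 rose and 1 fell, beside 16.5% of all genes, 8.78% upward and 7.70% downward. In the GSK2-RNAi oswrky53-labelled libraries against the wild type, 0 of 6 passed in limma, beside 0.336% of all genes. CKX2 and CKX9 had an unadjusted p under 0.05 there, as did 13.0% of all genes tested, and CKX2 reached the filter only outside the wild type. The median log2 fold change over the 6 members was 1.16, -0.09 and 0.72 in the 3 comparisons in this order, beside 0.02, -0.01 and 0.02 over all genes. With members on both sides of 0, the family medians describe no common direction. Both comparisons with the wild type share its 2 libraries, and those that involve the GSK2-RNAi-labelled libraries share these.

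Summed over the 6 members, normalized counts were 5884, 3670 and 5780 in the GSK2-RNAi oswrky53-labelled libraries, 7232, 9765 and 7206 in the GSK2-RNAi-labelled libraries, and 4644 and 3070 in the wild type. The sum is not per length, since no transcript lengths were used, and it mostly followed CKX11. Without CKX11 the sums were 1568, 890 and 1954 in the GSK2-RNAi oswrky53-labelled libraries, 650, 710 and 796 in the GSK2-RNAi-labelled libraries, and 1146 and 1335 in the wild type. The GSK2-RNAi-labelled libraries thus held the highest sums with CKX11 and the lowest without it. The sum without CKX11 mostly followed CKX4, at 457 to 552 in the GSK2-RNAi-labelled libraries and 1013 and 1176 in the wild type. Of the other members, CKX3 had a lower mean in the GSK2-RNAi-labelled libraries than in the wild type. CKX2, CKX5 and CKX9 had a higher one, and only CKX9 of these passed the test.

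**Figure D3:**
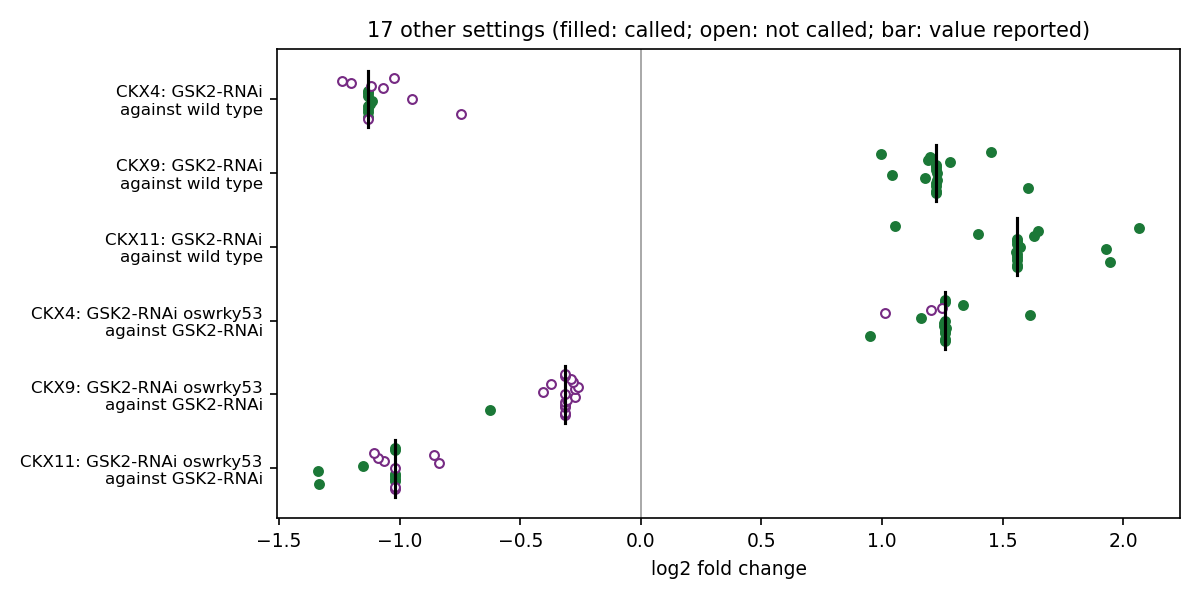
Log2 fold changes (x axis) of CKX4, CKX9 and CKX11 in 2 comparisons under 17 other settings, 1 point per setting; filled points were called, open points were not, and the black bar is the value reported. CKX9 and CKX11 against the wild type were called under all 17, while CKX4 against the wild type and CKX11 in the lower comparison were each called under 9.

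Other genes of the cytokinin pathway were grouped by role. Among activating enzymes of the LOG family, which release the active base, 8 of 10 were tested, and 1 rose and 1 fell in the GSK2-RNAi-labelled libraries against the wild type, a share close to the 24.8% of all genes called there. LOGL9 (Os09g0547500) was at 40.8, 48.2 and 124 normalized counts in the GSK2-RNAi oswrky53-labelled libraries, at 330, 346 and 447 in the GSK2-RNAi-labelled libraries, and at 13.0 and 15.2 in the wild type. On the log2 scale it rose by 4.62 ± 0.44 (SE) in the GSK2-RNAi-labelled libraries relative to the wild type, with limma adjusted p = 0.000644, and fell by 2.55 ± 0.39 in the GSK2-RNAi oswrky53-labelled libraries against the GSK2-RNAi-labelled libraries (adjusted p = 0.0061). LOG itself (Os01g0588900) was 2.13-fold lower in the GSK2-RNAi-labelled libraries than in the wild type (adjusted p = 0.0216), a call that ended with equal totals, with quantile normalization, with the replicate block, or when wild type replicate 1 or GSK2-RNAi replicate 1 or 2 was dropped (adjusted p up to 0.123). LOG and LOGL10 rose and LOGL9 fell in the GSK2-RNAi oswrky53-labelled libraries against the GSK2-RNAi-labelled libraries, where 16.5% of all genes were called. The LOG call rested on GSK2-RNAi oswrky53 replicate 3 and on GSK2-RNAi replicates 1 and 2 (adjusted p up to 0.0828 when any of them was dropped) and was lost with quantile normalization, and that of LOGL10 on GSK2-RNAi replicate 2 (0.072).

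Of 3 receptor genes, HK3 rose by 0.67 and HK4 fell by 0.79 on the log2 scale in the GSK2-RNAi-labelled libraries against the wild type (limma adjusted p = 0.0162 and 0.0218), beside 24.8% of all genes called there. Either call ended when a wild type library was dropped, and that of HK4 also when any GSK2-RNAi-labelled library was dropped and with equal totals (adjusted p up to 0.109 for HK3 and 0.147 for HK4). Of 4 type-B regulators, which activate cytokinin targets, RR21, RR22 and RR23 rose, by 0.47, 0.94 and 0.81, beside 13.3% of all genes called upward. All 3 calls ended when wild type replicate 1 was dropped (adjusted p up to 0.257, 0.112 and 0.111 over the settings). Those of RR21 and RR22 also needed wild type replicate 3 and GSK2-RNAi replicates 1 and 2, and that of RR21 needed GSK2-RNAi replicate 3 and GSK2-RNAi oswrky53 replicate 2 as well. The fit per transcript ended the calls of HK3, HK4, RR21 and RR23, the replicate block those of RR21 and RR22, and a fit without the intensity trend that of RR21. In the GSK2-RNAi oswrky53-labelled libraries against the GSK2-RNAi-labelled libraries, 0 of 3 receptors and 0 of 4 type-B regulators passed in limma, but 1 receptor and 3 type-B regulators fell with equal totals. That setting lowered the median of all genes in this comparison. Of 25325 genes, 7338 were called under it, and 1145 of these were higher. The falls with equal totals are therefore not read as a trait of the receptors or type-B regulators. HK3 also fell with quantile normalization. Without GSK2-RNAi oswrky53 replicate 2, RR23 fell and HK4 rose. HK3, HK4, RR22 and RR23 had an unadjusted p under 0.05 in the limma fit of that comparison. The share of all genes with such an unadjusted p in this comparison is not given here. It is at least the 16.5% called after adjustment, but its size is open. Without it, this count is not read as a trait of these roles.

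Of 7 type-A regulators, 5 fell and 0 rose in the GSK2-RNAi-labelled libraries against the wild type, with a list median of -1.37, beside 11.6% of all genes lower and 13.3% higher. In turn 5 rose and 0 fell in the GSK2-RNAi oswrky53-labelled libraries against the GSK2-RNAi-labelled libraries, with a list median of 1.90, beside 8.78% of all genes higher and 7.70% lower. RR2, RR4, RR6, RR9 and RR10 made up both counts, and each of their calls held under all 17 settings. RR4 (Os01g0952500) was at 2176, 1601 and 2246 normalized counts in the GSK2-RNAi oswrky53-labelled libraries, at 516, 493 and 594 in the GSK2-RNAi-labelled libraries, and at 2888 and 2637 in the wild type. Its 3 GSK2-RNAi-labelled libraries lay below the other 5, as for CKX4, and its log2 fold changes were -2.37 against the wild type and 1.90 in the GSK2-RNAi oswrky53-labelled libraries against the GSK2-RNAi-labelled libraries (limma adjusted p = 0.000257 and 0.000984). RR6 (Os04g0673300) followed the same order of the GSK2-RNAi-labelled libraries below the rest, with log2 fold changes of -1.37 and 2.24 in these comparisons. RR9 and RR10, both among the 5, are near-identical copies that can share reads. In the GSK2-RNAi oswrky53-labelled libraries against the wild type, 0 genes of the 4 role lists passed in limma at the adjusted threshold. Of the listed genes, 6 had an unadjusted p under 0.05, against 13.0% of all genes tested. They were LOGL9 and LOGL10 of 8 LOG-family genes tested, and RR4, RR6, RR9 and RR10 of 7 type-A regulators. None of the 3 receptors or 4 type-B regulators was among them. The share in the type-A list was thus above that of all genes, with RR4 lower and RR6, RR9 and RR10 higher.

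**Figure D4:**
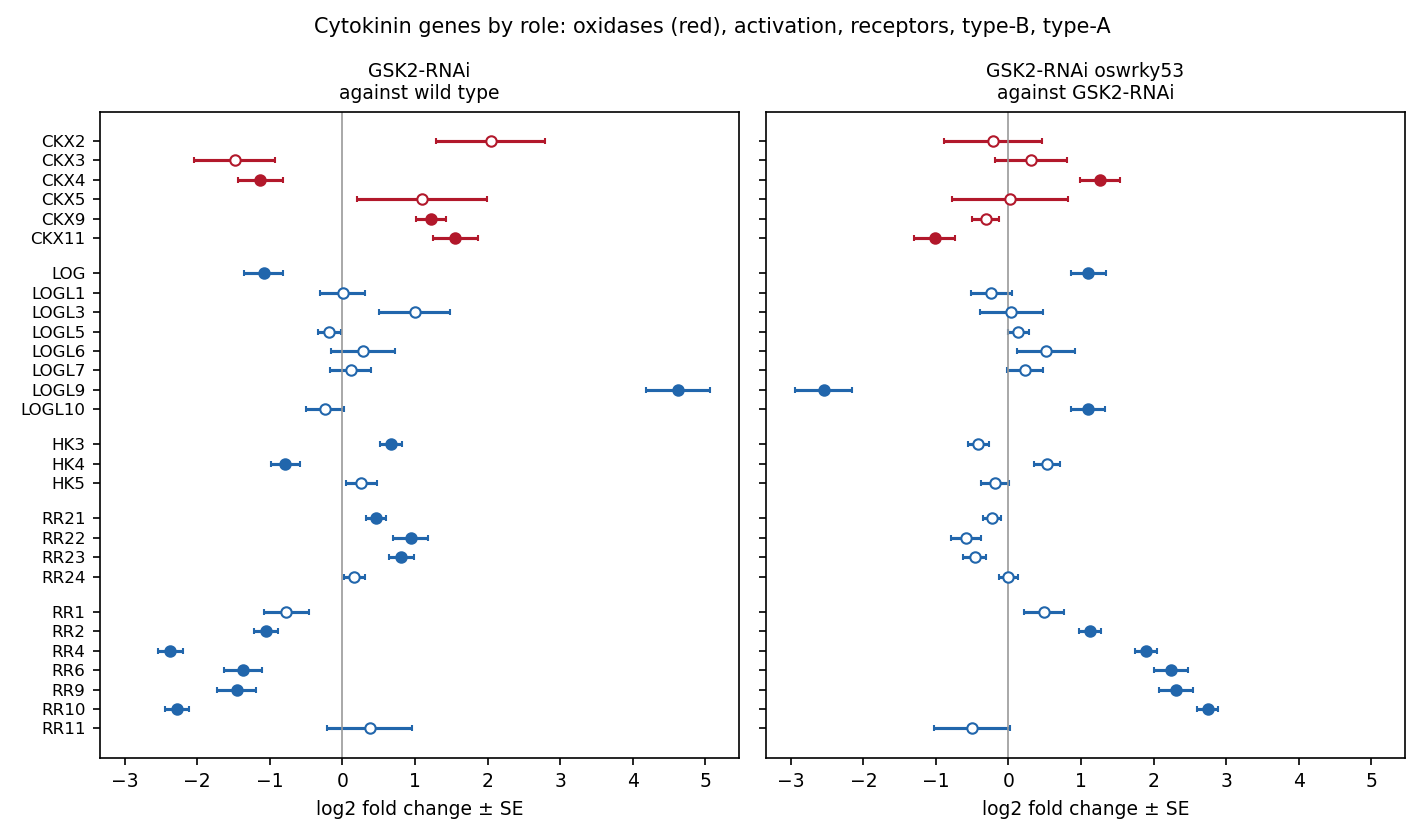
Log2 fold changes ± SE (x axes) of the tested oxidase genes (red) and of LOG-family, receptor, type-B and type-A genes (blue, from top to bottom) in 2 comparisons; filled points passed an adjusted p under 0.05. Type-A regulators and CKX4 lie left of 0 in the left panel and right of 0 in the right panel, apart from RR11, while CKX11 and LOGL9 lie on the opposite sides.

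Likeness of pattern was measured as the root mean square difference of log2(value + 1), after each gene's own mean was taken off, over the 8 libraries. It was computed against 33 named genes of the cytokinin and marker lists, and all tested genes outside the family gave the background. CKX4 lay nearest to the type-A regulator RR2 (Os02g0557800), at 0.24 on the log2 scale, and to LOG, at 0.26. Of 25319 genes, 6 lay nearer to CKX4 than RR2 did and 19 nearer than LOG did. RR2 was at 4895 to 6216 normalized counts in the GSK2-RNAi oswrky53-labelled libraries, at 2346 to 2964 in the GSK2-RNAi-labelled libraries and at 4969 to 5966 in the wild type, so that it too was lowest in the GSK2-RNAi-labelled libraries. HK4 was the next, at 0.39.

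**Figure D5:**
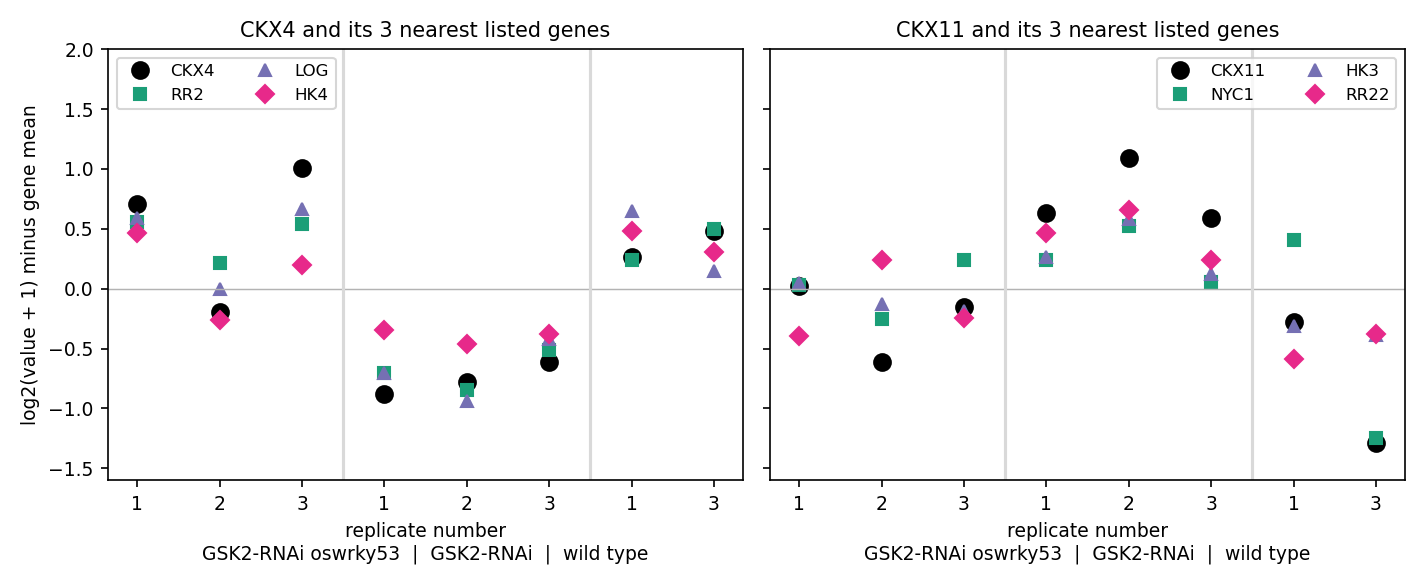
Centred log2(value + 1) (y axis) of CKX4 (left) and CKX11 (right) with the 3 listed genes nearest to each, in every library (x axis, by replicate number within genotype). RR2 and LOG follow CKX4 closely, with 6 and 19 of 25319 genes nearer, and the genes beside CKX11 follow it less closely.

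For the other members, 280 to 2041 genes lay nearer than the nearest of the 33 named genes, so no special likeness is read from these. CKX11 lay nearest to NYC1 (0.44, with 788 genes nearer), HK3 (0.46) and RR22 (0.52), and CKX9 to RR23 (0.31, with 726 nearer), HK3 (0.32) and RR22 (0.34). CKX3 lay nearest to RR1 (0.58, with 457 nearer), HK4 (0.65) and LOG (0.67). For the low genes CKX2 and CKX5 the nearest were LOGL3 (0.94, with 2041 nearer) and NYC1 (0.77, with 280 nearer). Within the family, the smallest distance was that between CKX9 and CKX11, at 0.51, and the largest was that between CKX2 and CKX3, at 1.51. The spread of each member over the 8 libraries, as the root mean square of its centred log2 values, was from 0.50 for CKX9 to 1.09 for CKX2, against a median of 0.38 over all genes tested; the members with few reads, CKX2 and CKX5, had the largest.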

How the data were processed

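Flag leaf RNA libraries were made from total RNA with a TruSeq kit, per the labels' protocols. In the 1 deposited table each of 38335 transcripts has a normalized count, which is a signal at or above 0. Tools named in the submitters' processing notes are DESeq2 1.26.0 and kallisto 0.46.1, on build IRGSP-1.0, without their roles; which annotation and scaling the authors used is not given in the sources used here.

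Columns were matched to samples by title, and transcript values were summed per gene. A gene was tested if it reached 10 in 2 or more libraries, which left 25325 of 32166 genes and all 6 members. Deposited values entered as log2(value + 1), a scale on which changes of low genes come out too small. Group means of all 8 libraries were fitted with limma 3.58.1 in R 4.3.3 (eBayes with an intensity trend), with Benjamini-Hochberg adjustment over all genes tested; the fit was tested on simulated data. The approximate value of 1 read was the densest low value of each library; kallisto splits reads, so no count model was run, and intervals from reads cover counting error only. Python 3.11.15 with scipy 1.17.1 and matplotlib 3.10.9 was used for the rest.

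Identifiers carry no names in the table. The 6 member names and those of listed genes were paired by hand and used only where the symbol stood in the reference table (assembly ASM3414082v1) on the same chromosome and in matching order. That held for all 6 members, 27 of 54 other cytokinin pairs and 16 of 19 marker pairs. The lists of cytokinin synthesis, conjugation and phosphotransfer and the regulator DST kept 0 pairs, and WRKY53 had none, so these are not reported. The order check cannot tell neighbouring relatives apart. The rule for named genes took all 6 members, other oxidases, up to 3 called genes of each role list with the largest change, GSK2, and the 3 listed genes nearest in pattern to each member; HK4, RR21 and others of the small role lists fall under it. Members and lists were chosen with earlier results of these data known. Coordinates and sequences were not used here.

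Of the 4 marker lists, 0 of 3 leaf genes passed in any comparison (2 did without the intensity trend in each comparison with the GSK2-RNAi-labelled libraries). Of 3 senescence genes, 2 rose in the first comparison, beside 13.3% of all genes, and 2 fell in the second, beside 7.70%. Of 6 floral genes 3 were tested; no count of them is given, since MADS3 reached the filter only in the GSK2-RNAi-labelled libraries, and 0 of 2 tested genes of dividing cells passed in any comparison.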

Additional observations from a re-analysis of the deposited data

How the results depend on the processing

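Of 306 values of the 6 members under other settings (18 log2 fold changes, 17 settings each), 299 kept their direction, 19 lost and 7 gained a call, and 0 of the 7 that turned belonged to a called value. In the GSK2-RNAi oswrky53-labelled libraries against the GSK2-RNAi-labelled libraries, CKX5 turned to -0.27 with equal totals, -0.79 without GSK2-RNAi oswrky53 replicate 3 and -0.33 without GSK2-RNAi replicate 1. In the same comparison CKX2 turned to 0.39 without GSK2-RNAi oswrky53 replicate 2 and 0.06 without GSK2-RNAi replicate 3, and CKX3 to -0.23 without GSK2-RNAi oswrky53 replicate 3. Over the 8 leave-outs the values in that comparison ran from -0.78 to 0.39 for CKX2, -0.23 to 0.68 for CKX3 and -0.79 to 0.56 for CKX5. Against the wild type, CKX4 in the GSK2-RNAi oswrky53-labelled libraries turned to -0.12 without replicate 3 of that genotype, with leave-outs from -0.12 to 0.49.

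Genes called in the GSK2-RNAi-labelled libraries against the wild type numbered 6290, with 3364 higher, against 9515 with equal totals, of which 8051 were higher. For the GSK2-RNAi oswrky53-labelled libraries against the GSK2-RNAi-labelled libraries they numbered 4172, with 2223 higher, against 7338 with equal totals, of which 1145 were higher. For the GSK2-RNAi oswrky53-labelled libraries against the wild type they numbered 85, against 44 with only those 2 groups in the fit and 136 in a fit per transcript. Of the 2 members called between the GSK2-RNAi oswrky53-labelled libraries and the GSK2-RNAi-labelled libraries, 1 was called without the intensity trend and 1 in the fit per transcript. The causes were not tested.

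Leaving out 1 library at a time gave 2 to 4, 0 to 2 and 0 to 0 members called in the 3 comparisons in this order, and 3670 to 6911, 1575 to 4354 and 53 to 64 genes called. The lowest counts came without GSK2-RNAi replicate 2 in the first comparison and in the second. Where 1 wild type library was left, it was assumed to vary like the other groups.

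The labels say nothing of paired samples. Deviations of same-numbered libraries between the GSK2-RNAi oswrky53-labelled libraries and the GSK2-RNAi-labelled libraries correlated at -0.04, -0.06 and 0.04, so the numbers were not taken as pairs. Against the wild type they correlated at -0.20 and -0.21 for the GSK2-RNAi-labelled libraries. For the GSK2-RNAi oswrky53-labelled libraries the values were 0.15 and -0.15. The deviations of 2 wild type libraries mirror each other, so the check can say little there. With the replicate number as a block, 3894, 2621 and 32 genes and 3, 1 and 0 members were called in the 3 comparisons, so CKX4 lost its call in the first (adjusted p = 0.0558) and CKX11 in the second (0.0711), while CKX2 gained one in the first (0.0337). Counts were lowest for CKX2 and CKX5, at about 2.99 reads in at least 1 wild type library. CKX5 also ran from about 5.98 to 46.3 reads among the GSK2-RNAi oswrky53-labelled libraries, and the parts of depth and of spread between libraries in its intervals were not tested.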
